A study of Homo sapiens with 4 samples.

Results

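The BCL2 family holds the proteins that decide whether the outer membrane of the mitochondrion is opened during apoptosis. The family was taken here as 10 genes chosen by symbol, and all 10 were found once each in the feature list of both cell lines, among 33540 listed features in Ishikawa and 33538 in T-47D. They were followed by single-cell RNA-seq (scRNA-seq) in Ishikawa, a human endometrial adenocarcinoma line, and T-47D, a human breast carcinoma line. Cells of both lines were kept in hormone-depleted medium and then received 10 nM 17beta-estradiol (E2) for 2, 4 or 8 h, or vehicle (DMSO) as the 0 h time point. MULTI-seq barcodes marked the time point of each cell before the 4 cultures of a line were mixed and run as 1 library. Each line and time point was 1 culture, so no value has a replicate, no test was made, and every interval covers counting error only. The study did not authenticate the cells, and line and library cannot be told apart.

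Pro-survival members (BCL2, BCL2L1, which encodes BCL-XL, and MCL1) hold the effectors BAX and BAK1 in check. The BH3-only members (BIK, BBC3, which encodes PUMA, PMAIP1, which encodes NOXA, BCL2L11, which encodes BIM, and BMF) bind the pro-survival proteins or the effectors and shift the balance toward pore formation by BAX and BAK1. In estrogen receptor positive breast cancer cells, BCL2 is a textbook gene raised by estrogen and BIK is known as a gene lowered by it. BBC3, PMAIP1 and BAX are known targets of p53.

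The limits of the study on unique molecular identifiers (UMIs, each marking 1 captured transcript), genes and mitochondrial share left 4613 of 9077 called Ishikawa cells and all 4626 called T-47D cells. The pools held 776, 1480, 892 and 1465 Ishikawa cells at 0, 2, 4 and 8 h, and 1525, 1207, 1341 and 553 T-47D cells. Their UMIs summed to between 15305038 and 30994433 per pool in Ishikawa and between 12927799 and 33175309 in T-47D, with medians of 19121.5 to 22576 UMIs per cell. The limits kept 38.2% of called Ishikawa cells at 0 h and 52.4% to 55.8% later, with a median mitochondrial share of called cells of 7.29% at 0 h and 4.63% to 4.95% later. With every called cell kept, all 30 member changes against 0 h of Ishikawa stayed within the counting intervals given below, and 4 whose intervals held 1 turned sign (MCL1 at 8 h, BIK at 4 and 8 h, BCL2L11 at 2 h). The libraries shared 80 cell barcodes, 5 of them among kept cells. Of 5 markers of the endometrial line, SOX17, PAX8, EMX2 and HOXA10 had 0 UMIs in T-47D and MSX1 had 80. Of 5 T-47D markers, PIP had 0 UMIs in Ishikawa, GATA3 had 1, SPDEF 12 and AZGP1 57, while TRPS1 was in 27.8% of its cells. All 5 markers of each line were present in that line. Of 10 markers of other cell types, COL1A1 was the one above 2 CPM (counts-per-million, the UMIs scaled to the UMI total of the pool), at 19.8 to 28.9 CPM in Ishikawa and 5.58 to 6.96 CPM in T-47D. Of a list of 20 estrogen targets, 16 had a mean of at least 10 CPM in T-47D and 9 in Ishikawa. In T-47D 14, 12 and 13 of them were at least 1.5-fold higher at the 3 later times, against 1.22%, 1.33% and 2.34% of all genes. In Ishikawa 3, 1 and 1 were, against 0.786%, 0.634% and 0.812%. Below 10 CPM in Ishikawa, the 8 h ratios of PGR, CA12 and GREB1 were 5.15 (2.97 to 9.65), 3.61 (2.57 to 5.21) and 3.32 (2.01 to 5.79), while the MYB interval held 1. These were picked from the listed targets below that level. Of the others, CXCL12 had 0 UMIs at every time, and SUSD3 and RET had 2 and 3 UMIs at 0 h, too few for a ratio. The counts of called targets thus do not compare the response of the lines.

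In the hg38 build the genes are spread over chromosomes, with MCL1 at chr1:150574558-150579610, BIK at chr22:43110750-43129712 and BMF at chr15:40087890-40108879, while BAX (chr19:48954875-48961798) and BBC3 (chr19:47220824-47232860) share one, as do BCL2 (chr18:63123346-63320090) and PMAIP1 (chr18:59899996-59904305). Promoter sequence was read for 8 of the 10 members from RefSeq (GRCh38.p14). BIK and MCL1 were not among them. The windows below are the 250 bases before the annotated start, written 5′ to 3′ on the strand of the gene. For the windows shown, that start is also the edge of the gene position given above. For BCL2 and BBC3 it is not. Those shown were chosen by the results: BAX because it was lower in T-47D and not in Ishikawa, PMAIP1 because it differed most between the lines, and BMF because it was lower after E2 in all 6 later pools. Capitals mark E-boxes (CACGTG) in BAX at chr19:48954625-48954874 (+ strand), GC boxes (GGGCGG or its complement) in PMAIP1 at chr18:59899746-59899995 (+ strand), and half-sites of the estrogen response element (GGTCA or its complement) in BMF at chr15:40108880-40109129 (- strand).
BAX: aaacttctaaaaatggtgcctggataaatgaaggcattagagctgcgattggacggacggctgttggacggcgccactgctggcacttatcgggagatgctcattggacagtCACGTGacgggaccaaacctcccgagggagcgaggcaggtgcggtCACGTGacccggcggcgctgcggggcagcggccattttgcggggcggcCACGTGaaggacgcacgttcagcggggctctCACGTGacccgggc
PMAIP1: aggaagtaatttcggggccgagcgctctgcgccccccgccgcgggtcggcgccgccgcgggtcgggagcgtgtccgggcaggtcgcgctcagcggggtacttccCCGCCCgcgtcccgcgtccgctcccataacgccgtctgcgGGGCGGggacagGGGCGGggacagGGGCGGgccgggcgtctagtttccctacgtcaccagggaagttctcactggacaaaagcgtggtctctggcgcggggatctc
BMF: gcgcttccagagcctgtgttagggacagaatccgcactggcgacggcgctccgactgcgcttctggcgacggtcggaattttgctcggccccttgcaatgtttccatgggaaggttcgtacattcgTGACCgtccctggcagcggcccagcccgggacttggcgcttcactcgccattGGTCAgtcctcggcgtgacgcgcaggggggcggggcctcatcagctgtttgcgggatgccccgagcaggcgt

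The BAX window held 4 E-boxes, and 0.0142% of the 35116 promoter windows of this length held as many. An E-box of any number was in 6.34% of windows. BAX also held 3 half-sites of the estrogen response element, as did 1.34% of windows in that number or more, and each of the 3 shared 2 letters with an E-box. BMF held 2 half-sites (7.03% of windows had as many), where 32.6% of all windows held at least 1, and a second BMF start held 1. PMAIP1 held 4 GC boxes (7.63% of windows), BCL2L11 held 3 (13.9%), and 42.6% of windows held at least 1. The full palindrome GGTCANNNTGACC was in 0.0399% of windows and in no member window. BCL2 and BCL2L1 held none of the motifs searched. The BCL2 window lay inside the gene position given above, so its bases are not upstream of that position. The BBC3 window lay partly inside its own. The windows of the second BMF start and of a second BCL2L1 start also lay inside their genes. The AP-1 site TGANTCA, present in 6.57% of windows, was found once, in BBC3, which also held 1 E-box. Both strands were searched, and a match is a description of letters only.

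A gene was called where its mean over the 4 time points was at least 10 CPM and it differed by at least 1.5-fold from 0 h of the same line after 1 CPM was added to both values. All log2 changes are on that scale, which understates those of low genes, while ratios are of CPM with nothing added. In Ishikawa 7 members passed the minimum, all except BIK, BBC3 and BMF, and 0 of them were called at any time. Of the 7885 Ishikawa genes past the minimum, 0.786%, 0.634% and 0.812% were called higher at 2, 4 and 8 h and 0.659%, 0.621% and 0.469% lower. In T-47D 3 members passed it, BCL2L1, MCL1 and BAX, and 0 were called. Of the 7440 T-47D genes, 1.22%, 1.33% and 2.34% were called higher and 0.417%, 0.363% and 0.726% lower. At such shares, 0 calls among 7 or 3 members is no result about the family, and the members' own values follow.

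**Figure D1:**
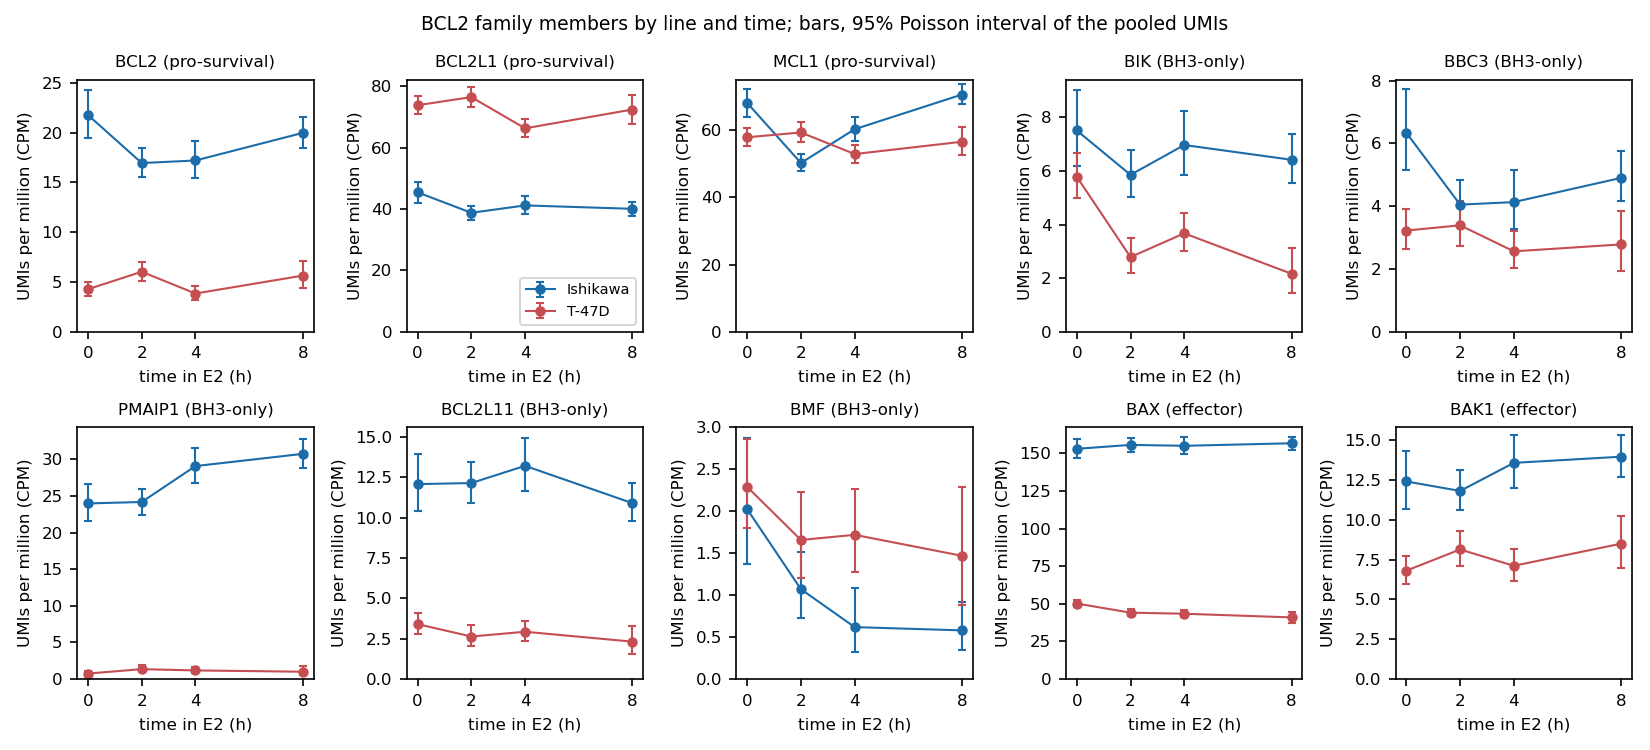
Levels of the 10 members (CPM, y axis from 0) against time in E2 (h) in Ishikawa (blue) and T-47D (red), 1 pool of cells per point, with 95% Poisson intervals of the pooled UMIs. PMAIP1, BCL2, BCL2L11 and BAX were higher in Ishikawa at every time, BCL2L1 was higher in T-47D at every time, and BIK in T-47D went from 5.79 CPM at 0 h to 2.17 CPM at 8 h.

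For all members but BIK, MCL1 and BMF, the lines at 0 h differed by a larger ratio than any time point did from 0 h. At 0 h PMAIP1 was at 23.98 CPM in Ishikawa and 0.754 CPM in T-47D, a ratio of 31.8 (exact 95% interval 21.2 to 49.8). BCL2 was at 21.8 and 4.28 CPM, a ratio of 5.08 (4.16 to 6.23). BAX was at 153 and 50.2 CPM, a ratio of 3.05 (2.86 to 3.25), and BCL2L11 at 12.1 and 3.41 CPM, a ratio of 3.55 (2.79 to 4.53). Members of all 3 roles were thus higher in Ishikawa. BBC3 (ratio 1.97, 1.48 to 2.61) and BAK1 (1.82, 1.49 to 2.22) followed. MCL1 was close in both lines, 68.1 against 57.9 CPM (ratio 1.18, 1.09 to 1.27), as was BIK, 7.51 against 5.79 CPM (1.30, 1.02 to 1.64). BMF was at 2.03 and 2.29 CPM, with an interval of the ratio that held 1 (0.563 to 1.36). BCL2L1 was the member clearly lower in Ishikawa, at 45.5 against 73.9 CPM (ratio 0.616, 0.565 to 0.670). Of the 5 members with a mean of the lines of at least 10 CPM, PMAIP1, BCL2 and BAX were at least 1.5-fold higher in Ishikawa and BCL2L1 lower, where 33% of the 8023 genes past that level were higher and 23.7% lower, so differences of this size were common.

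Summed by role, the pro-survival members were level between the lines at 0 h, at 135 CPM in Ishikawa and 136 CPM in T-47D, with BCL2L1 giving more of the T-47D sum and BCL2 more of the Ishikawa sum. The effectors summed to 166 and 57.1 CPM, and the BH3-only members to 51.9 and 15.5 CPM. These sums and the later ones cover the chosen members only. Other BCL2 family genes were left out, among them BAD, at 75.7 CPM in Ishikawa at 0 h. The sums are thus not totals of a role and do not give the balance between roles. The 3′ UMI counts tag 1 end of a transcript, so these sums add transcripts and not transcript length.

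Of the pro-survival members, MCL1, whose protein and transcript are both known to turn over quickly, was lower at 2 h in Ishikawa and back near its 0 h level at 8 h. Over 0, 2, 4 and 8 h its levels were 68.1, 50.2, 60.3 and 70.6 CPM. The 2 h pool was the lowest and its interval did not overlap those of the other times. Against 0 h the ratios were 0.738 (0.681 to 0.799), 0.885 (0.814 to 0.963) and 1.04 (0.963 to 1.12) in time order. In cells with no UMI of the dividing-cell genes TOP2A and MKI67 the log2 changes were -0.53, -0.18 and -0.23, against -0.43, -0.17 and 0.05 in all cells, so the 8 h level was below that of 0 h there. In T-47D MCL1 stayed between 52.9 and 59.3 CPM, with ratios of 1.02, 0.914 (0.854 to 0.977) and 0.977.

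MCL1 in Ishikawa was also higher in cells with more GFP, a reporter transcript in that library, and the GFP share of pool UMIs was 4.67% at 0 h against 3.17% at 2 h. With cells from 1% GFP left out the log2 change of MCL1 at 2 h was -0.35, against -0.43 in all cells. The part of the GFP cells in the change was not tested.

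BCL2 in Ishikawa was at 21.8, 16.9, 17.2 and 19.97 CPM at 0, 2, 4 and 8 h. The 2 h and 4 h pools were below the 0 h pool, with ratios of 0.779 (0.677 to 0.897) and 0.790 (0.677 to 0.923), and the 8 h interval held 1 (0.802 to 1.05). In cells with no TOP2A or MKI67 UMI the 2 h log2 change was 0.10 and the 4 h one -0.09, against -0.34 and -0.32 in all cells. These rest on 72, 142 and 70 BCL2 UMIs at 0, 2 and 4 h. No interval was made for them, so whether the lower level was absent in these cells is not settled. T-47D BCL2 was at 4.28, 6.03, 3.84 and 5.65 CPM from 142, 160, 114 and 73 UMIs. The ratio at 2 h was 1.41 (1.12 to 1.78), the 4 h ratio was 0.898 (0.696 to 1.16) and the 8 h ratio 1.32 (0.981 to 1.76), so the time points did not go one way.

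BCL2L1 in Ishikawa was at 45.5, 38.8, 41.2 and 40.1 CPM, below 0 h at each later time, with ratios of 0.853 (0.776 to 0.939), 0.906 (0.818 to 1.00) and 0.882 (0.803 to 0.969). In T-47D it was at 73.9, 76.5, 66.3 and 72.5 CPM, and the 4 h ratio of 0.898 (0.846 to 0.953) was the one whose interval did not hold 1. Taken as a sum, the pro-survival members in Ishikawa stood at 0.783 (0.741 to 0.828), 0.877 and 0.966 of the 0 h level, and in T-47D at 1.04, 0.905 and 0.990.

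Among the BH3-only members, BIK in T-47D had the lowest ratios to 0 h of any member in that line. Its levels were 5.79, 2.79, 3.68 and 2.17 CPM in time order, from 192, 74, 109 and 28 UMIs. All 3 later pools were below the 0 h pool and none of their intervals overlapped it. The ratios were 0.482 (0.364 to 0.633), 0.635 (0.497 to 0.808) and 0.374 (0.242 to 0.558), and the log2 changes -0.84, -0.54 and -1.10. BIK lay below the 10 CPM minimum and was therefore not among the called genes. With a minimum of 2 CPM, chosen after its values were seen, BIK at 2 and 8 h was called lower, and no other member was. The shares of the 11271 T-47D genes past 2 CPM called lower were 0.488%, 0.568% and 1.24% at 2, 4 and 8 h, and with no minimum, where again BIK alone was called, 0.361%, 0.413% and 0.949% of genes were.

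The share of T-47D cells with a BIK UMI was 11.4%, 6.05%, 7.38% and 5.06% at 0, 2, 4 and 8 h. In cells thinned to 10000 UMIs, which takes depth out of the comparison, it was 5.31% (4.24% to 6.56%), 3.89% (2.87% to 5.14%), 3.43% (2.52% to 4.55%) and 2.17% (1.13% to 3.76%). Of the later intervals, only that of 8 h did not overlap that of 0 h. BIK was lower at each time under every alternative tried, with log2 changes from -0.45 to -1.03 after 2 h, -0.31 to -0.64 after 4 h and -0.59 to -1.38 after 8 h. Keeping every called cell could not change T-47D values, since all its called cells lay within the limits. The share of T-47D cells with a TOP2A or MKI67 UMI was 32.6% at 0 h and 41.6% at 8 h, and in cells without one the BIK change at 8 h was -1.16. In Ishikawa BIK was at 7.51, 5.86, 6.97 and 6.42 CPM, with a ratio of 0.780 (0.613 to 0.995) at 2 h and intervals that held 1 at 4 and 8 h.

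**Figure D2:**
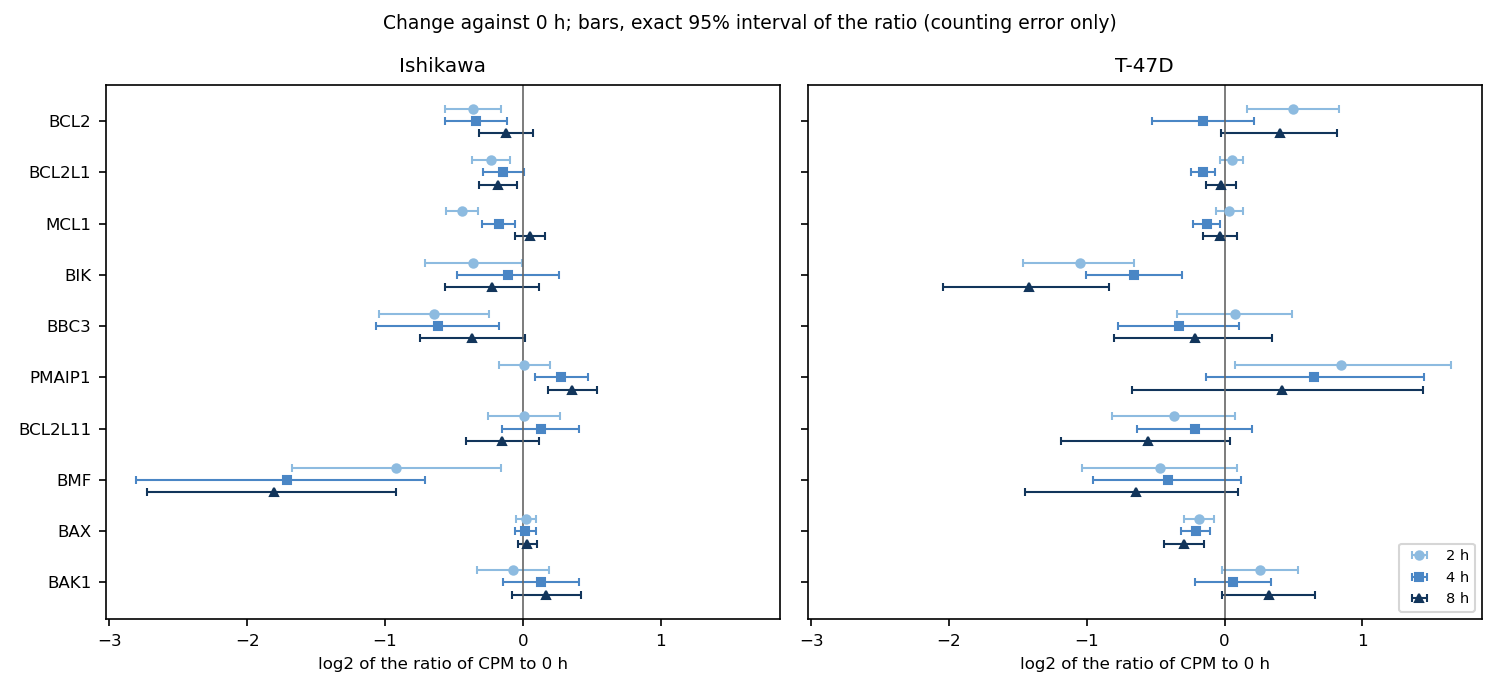
Log2 of the ratio of CPM, with nothing added, to 0 h of the same line (x axis) for each member (rows) at 2, 4 and 8 h (markers), with the exact 95% interval of the ratio, in Ishikawa (left) and T-47D (right). BIK in T-47D and BMF in Ishikawa lie furthest below 0, while BAX has intervals across 0 in Ishikawa and lies below 0 at each time in T-47D.

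BMF, which is bound to the cytoskeleton in healthy cells, was lower after E2 in both lines from few UMIs. In Ishikawa it was at 2.03, 1.07, 0.620 and 0.581 CPM, from 31, 32, 12 and 18 UMIs. Every later pool was below 0 h, with ratios of 0.529 (0.313 to 0.896), 0.306 (0.143 to 0.613) and 0.287 (0.151 to 0.529). With no minimum BMF was called lower at 4 and 8 h, and the share of Ishikawa genes called lower was 0.798%, 1.08% and 0.781% over the 3 later times. Among cells under 1% GFP the log2 changes of BMF were -0.13, -0.49 and -0.69, against -0.55, -0.90 and -0.94 in all cells. Those of the cells under 1% GFP rest on 10, 18, 6 and 6 UMIs at 0, 2, 4 and 8 h, and no interval was made for them. In T-47D BMF was at 2.29, 1.66, 1.72 and 1.47 CPM, also below 0 h at each time, but all 3 intervals of the ratio held 1.

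BBC3 in Ishikawa was at 6.34, 4.05, 4.13 and 4.90 CPM, and the ratios were 0.639 (0.485 to 0.844), 0.652 (0.479 to 0.886) and 0.774 (0.596 to 1.01). In cells under 1% GFP the log2 changes of BBC3 were -0.68, -0.36 and -0.56, against -0.54, -0.52 and -0.31 in all cells. BBC3 in T-47D was at 3.23, 3.39, 2.56 and 2.79 CPM, with intervals that held 1 at each time.

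PMAIP1 in Ishikawa was the 1 member of that line with ratios whose intervals lay above 1. It was at 23.98, 24.2, 29.1 and 30.7 CPM, level with 0 h at 2 h and above it at 4 h (ratio 1.21, 1.06 to 1.39) and 8 h (1.28, 1.14 to 1.45). Among cells under 1% GFP the log2 changes were 0.26, 0.39 and 0.39, against 0.01, 0.27 and 0.35 in all cells. The share of Ishikawa cells with a PMAIP1 UMI was 16.5%, 18.4%, 20.1% and 22.2% after thinning to 10000 UMIs, against 27.6%, 31.0%, 36.7% and 36.7% at full depth. In T-47D PMAIP1 was at 0.754, 1.36, 1.18 and 1.01 CPM, from 25, 36, 35 and 13 UMIs, above 0 h at each time, and only the 2 h interval (1.05 to 3.13) left out 1.

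BCL2L11 in Ishikawa stayed between 10.9 and 13.2 CPM, and in T-47D it was at 3.41, 2.64, 2.93 and 2.32 CPM. All 6 of its intervals held 1. As a sum of the chosen genes only, the BH3-only members in T-47D stood at 0.766 (0.663 to 0.883), 0.781 (0.680 to 0.895) and 0.630 (0.515 to 0.767) of 0 h. BIK gave 192 of the 513 UMIs at 0 h. In Ishikawa the sum stood at 0.911 (0.834 to 0.995), 1.04 and 1.03.

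Of the effectors, BAX in Ishikawa was the steadiest member. It was at 153, 156, 155 and 157 CPM, with ratios between 1.01 and 1.02 and intervals within 0.959 to 1.08. In T-47D BAX was at 50.2, 44.1, 43.4 and 41.0 CPM, below 0 h at each time, with ratios of 0.879 (0.815 to 0.947), 0.865 (0.803 to 0.930) and 0.816 (0.739 to 0.900). No test of the lines against each other was made. BAK1 in Ishikawa was at 12.4, 11.8, 13.6 and 13.97 CPM and in T-47D at 6.81, 8.14, 7.12 and 8.51 CPM. All 6 BAK1 intervals held 1, with the widest in T-47D at 8 h (0.985 to 1.58).

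Shares of cells showed how sparse the members were. At 0 h, in cells thinned to 10000 UMIs, a BAX UMI was found in 76.9% of Ishikawa and 38.8% of T-47D cells, MCL1 in 45.6% and 42.0%, BCL2L1 in 34.7% and 54.2%, and BCL2 in 17.9% and 3.93%. The other members ran from 2.50% (BMF) to 16.5% (PMAIP1) in Ishikawa and from 0.787% (PMAIP1) to 6.95% (BAK1) in T-47D. No cell type lacking the members was in either library. As a look at transcripts of the other line, of the 5 endometrial markers 4 were in 0 of 4626 T-47D cells, which allows a share of up to 0.0649%, and MSX1 was in 1.69%. Of the 5 T-47D markers, PIP was in 0 of 4613 Ishikawa cells, GATA3 in 0.0217%, SPDEF in 0.260%, AZGP1 in 1.17% and TRPS1 in 27.8%. The T-47D shares of PMAIP1 at full depth were 1.51%, 2.57%, 2.46% and 2.35%. Each line was its own library, so markers of the other line cannot measure free RNA from its own cells. A background of free RNA in the PMAIP1 shares was thus not measured. A thinned Ishikawa cell held UMIs of a median of 2 members at every time, and a T-47D cell of 2 at 0 and 2 h and 1 at 4 and 8 h. UMIs of all 3 roles together were found in 19.6% of Ishikawa and 4.59% of T-47D cells at 0 h, and no member UMI in 4.08% and 11.9%.

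Variation between cells at 0 h was measured as the coefficient of variation of UMIs per 10000, and each gene was given its percentile among genes of a similar mean. In Ishikawa PMAIP1 was at percentile 97.0, BCL2L11 at 95.8 and MCL1 at 94.4, so these transcripts were more unevenly spread than most genes of their level. BCL2 was at 73.9, BAK1 at 58.0, BAX at 44.8 and BCL2L1 at 28.2. In T-47D, MCL1 was at percentile 34.7, BAX at 19.8 and BCL2L1 at 6.18. The highest counts in an Ishikawa cell at 0 h were 9 UMIs of PMAIP1 and 15 of MCL1, against 2 and 8 in T-47D. Over all times they were 21 and 22, both at 8 h, against 3 and 10 in T-47D, both at 2 h. PMAIP1 was far lower in T-47D, so its highest counts do not compare unevenness between the lines. By percentile, BCL2L1 was low for its level in T-47D, and MCL1 was high for its level in Ishikawa and not in T-47D.

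Members also differed between cells of a line. Cells were split by whether they held a UMI of TOP2A or MKI67, genes of dividing cells, over all time points. BAX was 1.13 times as high in dividing as in other cells in Ishikawa (1.09 to 1.18) and 1.15 times in T-47D (1.09 to 1.22), and the ratio was above 1 in 4 of 4 pools of each line. BBC3 was lower in dividing cells, with ratios of 0.588 (0.485 to 0.714) in Ishikawa and 0.689 (0.533 to 0.886) in T-47D, below 1 in 4 of 4 pools of each line. By number of TOP2A and MKI67 UMIs (0, 1 to 2, 3 to 9, 10 or more), BBC3 was at 6.71, 5.06, 4.04 and 2.85 CPM in Ishikawa and BAX was at 142, 138, 156 and 185 CPM. BMF in Ishikawa was lower in dividing cells too (ratio 0.447, 0.291 to 0.689), and MCL1 slightly so (0.837, 0.792 to 0.884).

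PMAIP1 in T-47D, scarce as it was, lay mostly in dividing cells. There were 78 UMIs in 1606 cells with a TOP2A or MKI67 UMI and 31 UMIs in 3020 cells without, a ratio of 4.29 (2.80 to 6.73). Over the 4 bins it was at 0.481, 0.827, 3.55 and 4.63 CPM. Within pools the ratio was 3.40, 4.47 and 5.15 in the first 3 time points, and the 8 h pool held too few UMIs. In Ishikawa PMAIP1 did not differ in this way (ratio 0.999, 0.917 to 1.09). With no minimum, PMAIP1 in T-47D was the 1 member at least 1.5-fold higher in dividing cells, where 3.31% of T-47D genes were higher and 0.0522% lower. BBC3 and BMF were the 2 members lower in Ishikawa, where 1.23% of genes were lower and 2.46% higher. Deeper cells more often held a TOP2A or MKI67 UMI (a median of 23050 against 20337 UMIs in T-47D and 21884 against 17223 in Ishikawa), and the part of depth in these ratios was not tested. The 4 bins were chosen after the values were seen.

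**Figure D3:**
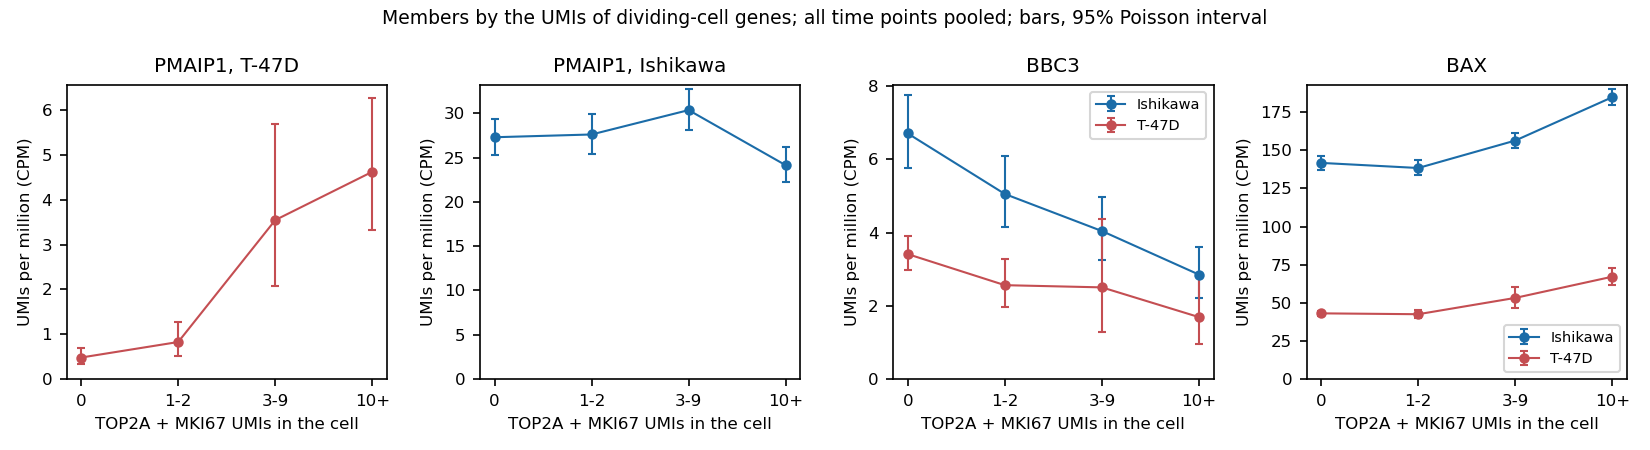
Levels (CPM, y axis from 0) of PMAIP1, BBC3 and BAX in cells grouped by the sum of their TOP2A and MKI67 UMIs (x axis), all time points pooled, with 95% Poisson intervals. PMAIP1 in T-47D went from 0.481 to 4.63 CPM over the bins, BBC3 went down in both lines and BAX went up in the last bin of both.

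In Ishikawa all members but BCL2L1 and BAX were higher in cells with more GFP. Over shares of GFP under 0.1%, 0.1 to 1%, 1 to 10% and from 10%, with GFP left out of the total, MCL1 was at 45.4, 51.8, 72.3 and 147 CPM. BBC3 was at 2.14, 3.25, 5.65 and 17.4 CPM and PMAIP1 at 19.3, 23.9, 31.8 and 58.3 CPM. BAX, at 157, 162, 161 and 165 CPM, did not follow it. Cells from 1% GFP held 1.73 times the MCL1 (1.65 to 1.82), 2.62 times the BBC3 (2.16 to 3.17), 2.49 times the BMF (1.62 to 3.85) and 1.60 times the PMAIP1 (1.48 to 1.73) of cells under 1%, with each ratio above 1 in 4 of 4 pools. The ratios of BIK (1.39, 1.19 to 1.64), BCL2 (1.32, 1.20 to 1.46), BCL2L11 (1.32, 1.17 to 1.49) and BAK1 (1.23, 1.10 to 1.38) were smaller and also above 1 in 4 of 4 pools. BCL2L1 was at 1.02 (0.956 to 1.09). In the same cells TOP2A was at 0.493 of its level in the others. With no minimum MCL1, BBC3, BMF and PMAIP1 were at least 1.5-fold higher and 0 were lower, where 4.61% of genes were higher and 0.698% lower. What GFP marks in these cells was not tested.

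**Figure D4:**
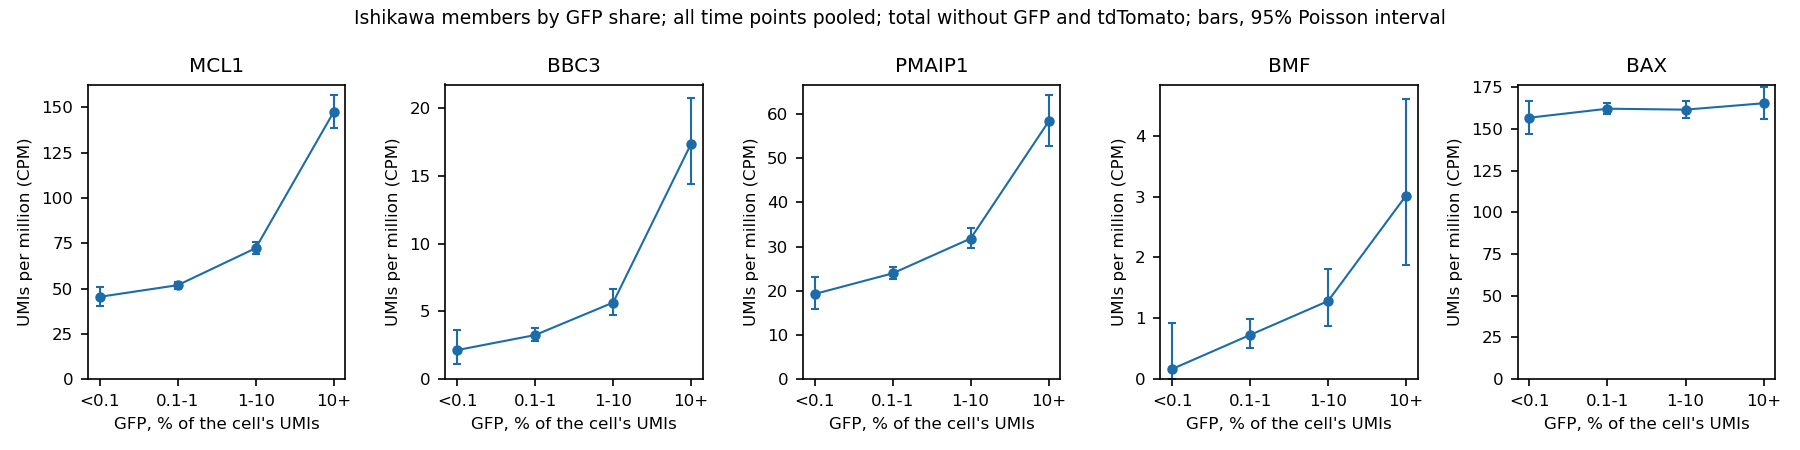
Levels (CPM, y axis from 0) of 5 members in Ishikawa cells grouped by GFP as a percentage of the cell's UMIs (x axis), all time points pooled, with 95% Poisson intervals. MCL1, BBC3, PMAIP1 and BMF were highest in the cells from 10% GFP, while BAX stayed between 157 and 165 CPM.

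Cells with a high mitochondrial share, of which the Ishikawa limit of 7% removed many, were compared with cells under 5%, without mitochondrial genes in the total. In Ishikawa cells of 10 to 20%, BCL2 was 1.87 times as high (1.53 to 2.26), BCL2L11 1.80 times (1.39 to 2.29), MCL1 1.45 times (1.29 to 1.63) and BCL2L1 1.44 times (1.24 to 1.66), and each was above 1 in 4 of 4 pools. BIK was at 0.455 (0.217 to 0.844) from 10 UMIs, and BAX at 0.960 (0.877 to 1.05). With no minimum, 2 of 10 members (BCL2 and BCL2L11) were at least 1.5-fold higher and 1 (BIK) lower. Of all genes, 32.5% were higher and 2.22% lower. Among genes with a mean of both groups of at least 10 CPM, 45.6% were higher and 3.11% lower. At such shares the 2 higher members are no result about the family, and rises of at least 1.5-fold were common. The 322 cells of 10 to 20% were shallow, with a median of 10708 UMIs, and TOP2A was 4.16 times as high in them. In T-47D the same comparison gave BAX at 0.806 (0.731 to 0.890), below 1 in 4 of 4 pools, as was TOP2A at 0.402 (0.381 to 0.423), and the part of dividing cells in the BAX ratio was not tested. The comparison gave BAK1 at 0.758 (0.596 to 0.975) and MCL1 at 1.13 (1.03 to 1.248), and 0 members were past the fold, against 9.79% of genes higher and 1.79% lower.

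Few genes of the surrounding pathway were called. Over the lines and times, 0.363% to 2.34% of all genes past the minimum were called in a given direction. At such shares, 0 calls in a list of 7 to 20 genes is no result about that list. Of 13 other BCL2 family genes, 7 passed the minimum in each line and 0 were called. BID, which links death receptors to the mitochondrion, had the highest log2 change in Ishikawa at 8 h, 0.47, from 35.7 to 49.7 CPM, and BOK, an effector-like member, the lowest, -0.37. In T-47D BOK had the highest at 8 h, 0.34, and BNIP3 the lowest, -0.13. The median log2 change of this list at 8 h was -0.07 in Ishikawa and 0.00 in T-47D, where that of all genes was 0.00 and 0.01.

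Of 26 genes of caspase activation, 20 passed the minimum in Ishikawa and 0 were called, with VDAC1 highest (0.33) and TRADD lowest (-0.31) at 8 h. Of 25 p53 target genes, 20 passed the minimum in Ishikawa, and PLK2, a kinase, was called lower at 2 h (-1.002, from 199 to 99.04 CPM) and 4 h (-0.61). In T-47D 15 passed it, with PLK2 called lower at 2 h (-0.85) and TP53INP1 at 4 h (-0.59) and 8 h (-0.60). No p53 target was called higher in either line, where 0.634% to 0.812% of all Ishikawa genes and 1.22% to 2.34% of all T-47D genes were. The 10 dividing-cell genes had 0 calls, with 8 h medians of -0.30 in Ishikawa and 0.18 in T-47D.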

How the data were processed

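Per the labels, Ishikawa and T-47D cells of 4 E2 time points were MULTI-seq tagged and mixed, and 1 gene expression library per line was sequenced. The authors made the counts (UMIs per gene and cell barcode, not normalized) with Cell Ranger 3.1.0, and the submitters' processing notes name the build hg38. The deposited calls assign barcodes to a time point; 1906 Ishikawa and 1442 T-47D barcodes called as tag doublets were left out, and doublets within a time point were not sought. Cells were kept within the limits of the study's methods (Ishikawa 8500 to 35000 UMIs, 2700 to 6000 genes, under 7% mitochondrial; T-47D 7500 to 40000, 1500 to 6000, under 20%). UMIs were summed over kept cells and scaled to CPM with the pool total. Intervals of 95% are exact Poisson (levels), exact conditional (ratios) and Clopper-Pearson (shares). Variation between cells used a generalised additive model (mgcv 1.9.3). Python 3.11.15, NumPy 2.4.6, SciPy 1.17.1, pandas 2.3.3, Matplotlib 3.10.9, R 4.3.3 and, for TMM factors, edgeR 4.0.16 were used. The functions were tested on simulated data. The members and lists were chosen with earlier results of these data known. The genes named are the 10 members whatever their values and, of each list, at most 4 called genes or the highest and lowest at 8 h. Dose and times are those of the labels. The MULTI-seq barcode sequences were not used here. The caspase activation list in T-47D is not reported here.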

Additional observations from a re-analysis of the deposited data

Results flagged for a closer look

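BAX stood out because its value lay above 0 h in each later Ishikawa pool and below 0 h in each later T-47D pool. In Ishikawa the log2 change was 0.024, 0.019 and 0.034 over the 3 later times. In T-47D it was -0.18, -0.21 and -0.29. No test of this difference was made, since each pool was 1 culture. All 3 Ishikawa intervals of the ratio held 1. Under the alternatives the Ishikawa changes lay between -0.05 and 0.06, with both signs, and those of T-47D between -0.49 and -0.13, all below 0.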

How the results depend on the processing

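Each line and time point was 1 culture, so differences between cultures cannot be told apart from an effect of E2. No paired analysis was possible because no test was made and no group has a second replicate. With no minimum, 2 member changes passed the lower fold in Ishikawa (BMF at 4 and 8 h) and 2 in T-47D (BIK at 2 and 8 h). A minimum of 2 CPM, added after the values were seen, gave the same 2 in T-47D. At the smaller fold tried, Ishikawa had 1 higher (PMAIP1 at 8 h) and 3 lower (BCL2 at 2 and 4 h, MCL1 at 2 h). The other counts of called members were 0 under the other pseudocounts, scalings, cell limits, minimum of 50 CPM and fold of 2. Of 30 member changes per line, cells with no TOP2A or MKI67 UMI moved 4 in Ishikawa and 1 in T-47D past their counting interval, and 7 and 3 turned sign. Cells under 1% GFP moved 1 in Ishikawa (PMAIP1 at 2 h, 0.26) and turned 0 signs. Thinning moved 1 in Ishikawa (BCL2 at 8 h, 0.08) and 0 in T-47D, and 6 and 4 turned sign. The other alternatives moved none past the counting interval, and in T-47D keeping every called cell could move none, since all were within the limits. The causes were not tested. At 0.581 to 2.29 CPM, PMAIP1 in T-47D and BMF in both lines rest on 12 to 76 UMIs a pool.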
